A study of Mus musculus with 4 samples.

Results

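The genes described here are 10 genes with which striated muscle releases calcium into the cell and takes it back up: Ryr1, Cacna1s, Trdn, Jph1, Casq1, Casq2, Atp2a1, Atp2a2, Sln and Pvalb. They were chosen by their role, as the rows of the count table that carry these symbols, and they are 10 of 55487 genes in the table and 10 of 22485 genes with enough counts to be tested. All 10 passed the filter on low counts. RNA of whole mammary fat pad (MFP), the fat tissue that holds the mammary ducts, was sequenced in 4 mouse samples after removal of ribosomal RNA and with the strand of the RNA kept. The aged group was 2 samples from animals of 14 months and the young group 2 samples from animals of 8 weeks, all written c57b/6j in the labels and given no treatment there, with replicate numbers 1 and 2 at each age. The tissue was lysed without isolating adipocytes, so each library held RNA of every cell type in the sample, and neither the pad taken nor the amount of muscle beside it is given in the sources used here. The labels call the replicates biological but name no animals, so the spread between samples of an age may include technical spread.

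Muscle contracts when an electrical signal on the cell surface is turned into a release of calcium from the sarcoplasmic reticulum, the calcium store of the muscle cell. At the triad, where the surface membrane folds inwards and meets the store, a voltage sensor in the surface membrane opens a ryanodine receptor in the store membrane, and calsequestrin inside the store holds the calcium that is let out. Pumps of the SERCA family carry the calcium back, small membrane peptides restrain the pumps, and parvalbumin binds calcium in the cytoplasm of fast fibres. Fast skeletal fibres, slow skeletal fibres and heart use different members of several of these gene families, and most other cell types use one widely expressed pump and other release channels.

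Levels are given as CPM, counts relative to the library total scaled by the TMM method, unless a level per kb is named, which is the CPM divided by the length of the longest annotated transcript. In total the libraries held 83936413 and 98402403 counts in aged and 77661766 and 68803304 counts in young MFP, so that 3 counts correspond to 0.0337 to 0.0407 CPM. The 10 genes took 0.762% and 1.19% of the counts in aged replicates 1 and 2, against 0.235% and 0.316% in young replicates 1 and 2. All 10 had a higher mean in aged than in young MFP, and their log2 fold changes (aged over young) had a median of 2.16, beside -0.04 over all genes tested. In all 10 both aged samples lay above both young samples, as they did in 23.3% of all genes tested. No member reached an adjusted p under 0.05 with edgeR's quasi-likelihood test and Benjamini-Hochberg adjustment over all genes tested, where 0% of genes were called and the smallest adjusted p was 0.360. Before adjustment, 9 of the 10 (all except Atp2a2) were higher in aged MFP at a p under 0.05, as were 7.24% of all genes tested, while no member and 3.31% of all genes were lower. DESeq2, the program named in the study's methods, called 5 of the 10 higher in aged MFP (Cacna1s, Ryr1, Atp2a1, Trdn and Jph1), beside 3.17% of the genes it tested. Over the other alternatives, the adjusted p of these 5 genes lay between 0.0668 and 0.976.

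**Figure D1:**
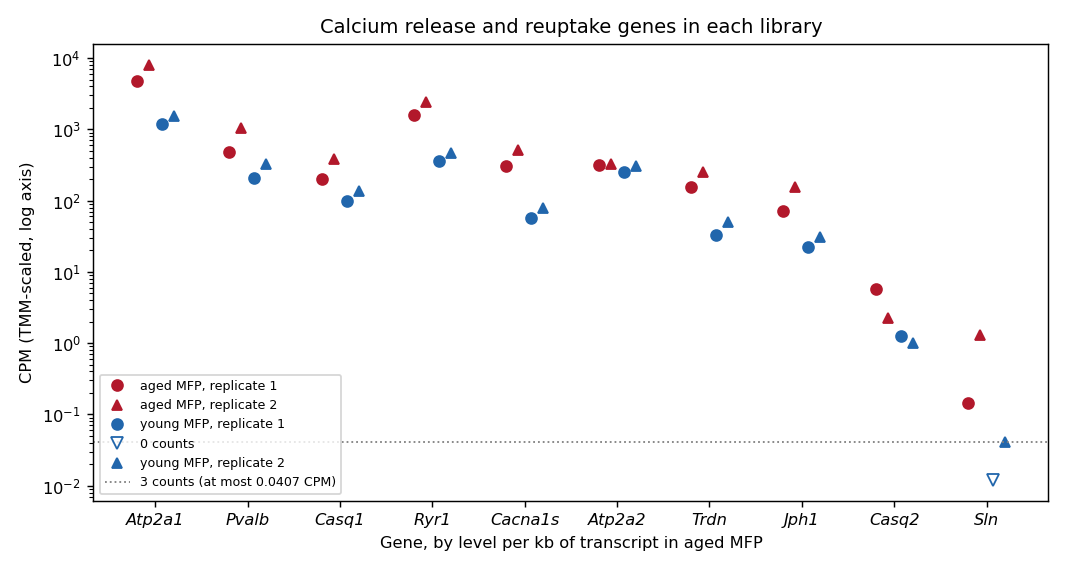
CPM (TMM-scaled, log axis) of the 10 genes in each of the 4 libraries, aged in red and young in blue, circles for replicate 1 and triangles for replicate 2, the open triangle a library with 0 counts and the dotted line 3 counts. The red points lie above the blue points in all 10 genes, by the smallest margin for Atp2a2, and aged replicate 2 is the highest library for every gene except Casq2.

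Promoter sequences are shown because the genes were higher together and because the fast or skeletal genes can be set beside a slow and cardiac one. The RefSeq promoter table on GRCm38.p6 held 6 of the 10 members (Ryr1, Cacna1s, Atp2a1, Casq1, Casq2 and Pvalb), with 7 promoters between them. A member was counted where any of its promoters matched, while the shares over all promoters were counted by promoter. The E-box CAGCTG, a palindrome that myogenic factors of the MyoD family can bind, was searched in the 250 bases before the start site. It was found in 3 of these 6 members, Atp2a1, Cacna1s and Casq1, and in 13% of all 32851 promoters of the table. Ryr1 and Pvalb, whose stretches are not printed, lacked it as Casq2 did. Its presence thus did not divide the fast or skeletal members from Casq2. No other form of the E-box was searched. Stretches that hold the E-box, in capitals, and the stretch before the start site of Casq2, in which it was not found, are given 5′ to 3′ on the strand of the gene.
Atp2a1, chr7:126463109-126463178, minus strand: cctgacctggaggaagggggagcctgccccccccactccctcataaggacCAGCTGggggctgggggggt
Cacna1s, chr1:136052638-136052743, plus strand: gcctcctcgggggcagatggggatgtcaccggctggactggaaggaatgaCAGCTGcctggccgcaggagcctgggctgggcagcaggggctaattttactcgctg
Casq1, chr1:172220035-172220140, minus strand: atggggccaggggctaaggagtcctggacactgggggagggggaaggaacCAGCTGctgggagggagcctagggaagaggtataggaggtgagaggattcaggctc
Casq2, chr3:102086309-102086414, plus strand: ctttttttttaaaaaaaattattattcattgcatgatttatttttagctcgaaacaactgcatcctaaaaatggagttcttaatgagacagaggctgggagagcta
The first base of the E-box lay 55 bases before the RefSeq start of Atp2a1, 123 before that of Cacna1s and 195 before that of Casq1. The SRF CArG box, searched by its consensus on both strands, was found in 0 of the 6 members and in 1.47% of all promoters. The MEF2 box was searched on both strands as well, in a strict form with C first and G last and in a wider form with either pyrimidine first and either purine last. The strict form was found in 0 of the 6 members and in 0.508% of all promoters, and the wider form in 2 of the 6, Casq2 and Pvalb, and in 2.92% of all promoters. Its first base lay 69 bases before the start of Casq2, within the stretch printed, and 180 before that of Pvalb. A TATA box, searched as TATAAA or TATATA on both strands, was found in Ryr1 alone of the 6 and in 15.6% of all promoters. Its first base lay at -209 relative to the start of Ryr1. Such matches describe the letters of these windows and say nothing about binding in this tissue.

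Cacna1s, Ryr1, Trdn and Jph1, the genes of the release complex, were 4.31- to 5.98-fold higher in aged MFP. Cacna1s (ENSMUSG00000026407, chromosome 1, 136052750 to 136119822, plus strand, GRCm38) encodes the voltage-sensing pore subunit of the skeletal muscle L-type calcium channel. It had 309 and 514 CPM in aged replicates 1 and 2 and 57.7 and 79.9 CPM in young replicates 1 and 2. The lowest aged library was thus well above the highest young one, and the level was 5.98-fold higher (log2 fold change 2.58 ± 0.35, SE, n = 2 per age), with an adjusted p of 0.360 by edgeR and 1.48e-08 by DESeq2. Ryr1 (ENSMUSG00000030592, chromosome 7, 29003344 to 29125179, minus strand), the release channel of the skeletal muscle store, had 1576 and 2393 CPM in aged and 356 and 465 CPM in young MFP. Here too the ages did not overlap, and the log2 fold change was 2.27 ± 0.34 (SE), with an adjusted p of 0.360 by edgeR and 2.11e-08 by DESeq2. Trdn (ENSMUSG00000019787, chromosome 10, 33080554 to 33476709, plus strand) encodes triadin, which ties calsequestrin to the release channel. Its 156 and 249 CPM in aged and 32.9 and 49.7 CPM in young MFP gave a log2 fold change of 2.29 ± 0.35 (SE), with an adjusted p of 0.360 by edgeR and 2.16e-06 by DESeq2.

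Jph1 (ENSMUSG00000042686, chromosome 1, 16964560 to 17097889, minus strand) encodes junctophilin 1, which holds the surface membrane and the store together at the triad. It had 70.7 and 156 CPM in aged and 22.2 and 30.4 CPM in young MFP. The groups did not overlap, but the aged samples stood 2.21-fold apart, more than for Ryr1 (1.52-fold), Trdn (1.60-fold) or Cacna1s (1.66-fold). The log2 fold change of Jph1 was 2.11 ± 0.46 (SE), with an adjusted p of 0.392 by edgeR and 0.000976 by DESeq2. Without aged replicate 2 its fold was 2.69 in place of 4.31.

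The 2 calsequestrins, the calcium buffers inside the store, differed in which aged library was high. Casq1 (ENSMUSG00000007122, chromosome 1, 172209894 to 172219868, minus strand), the form of fast skeletal fibres, had 203 and 378 CPM in aged and 100.04 and 138 CPM in young MFP. Casq2 (ENSMUSG00000027861, chromosome 3, 102086415 to 102146514, plus strand), the form of heart and slow fibres, had 5.81 and 2.25 CPM in aged and 1.27 and 0.989 CPM in young MFP. Casq1 was thus higher in aged replicate 2 and Casq2 in aged replicate 1, with both ages apart in each gene. The log2 fold change was 1.29 ± 0.38 (SE) for Casq1 and 1.83 ± 0.57 for Casq2, with adjusted p of 0.431 and 0.447 by edgeR and 0.0621 and 0.0615 by DESeq2. Both values rest on 1 library: without aged replicate 2 the fold of Casq1 was 1.70 in place of 2.44, and without aged replicate 1 that of Casq2 was 1.97 in place of 3.56. Casq2 counts were 475 and 200 in aged and 104 and 73 in young MFP.

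Among the reuptake genes the 2 pumps parted. Atp2a1 (ENSMUSG00000030730, chromosome 7, 126445858 to 126463108, minus strand) encodes SERCA1, the pump of fast skeletal fibres, and had 4694 and 8060.4 CPM in aged and 1197 and 1546 CPM in young MFP. The ages were far apart, with a log2 fold change of 2.22 ± 0.45 (SE) and an adjusted p of 0.376 by edgeR and 2.10e-06 by DESeq2. Atp2a2 (ENSMUSG00000029467, chromosome 5, 122453513 to 122502225, minus strand) encodes SERCA2, which serves slow fibres and heart in one form and most other cell types in another, and gene counts do not separate the forms. It had 314 and 324 CPM in aged and 249 and 305 CPM in young MFP. The highest young and the lowest aged library of Atp2a2 were nearly level, and they overlapped under upper quartile or total-count scaling. Its log2 fold change was 0.21 ± 0.17 (SE), with an adjusted p of 0.633 by edgeR and 0.771 by DESeq2.

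Sln (ENSMUSG00000042045, chromosome 9, 53850164 to 53854560, plus strand) encodes sarcolipin, a small peptide that restrains SERCA pumps, and was the least expressed member. Its counts were 12 and 114 in aged and 0 and 3 in young MFP, or 0.147 and 1.28 CPM against 0 and 0.0407 CPM, where 0 counts allow up to 0.0366 CPM. Nearly all of its counts came from aged replicate 2. The ratio of the summed counts, relative to the scaled library totals, was 38.3 (95% exact interval 12.8 to 188, which covers counting error only), and edgeR gave an adjusted p of 0.460 and DESeq2 of 0.0602. Pvalb (ENSMUSG00000005716, chromosome 15, 78191114 to 78206400, minus strand), the parvalbumin gene, had 488 and 1061 CPM in aged and 207 and 329 CPM in young MFP. The ages did not overlap, but aged replicate 2 lay 2.17-fold above aged replicate 1. The log2 fold change of Pvalb was 1.53 ± 0.49 (SE), with an adjusted p of 0.455 by edgeR and 0.0579 by DESeq2, and without aged replicate 2 its fold was 1.82 in place of 2.89.

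**Figure D2:**
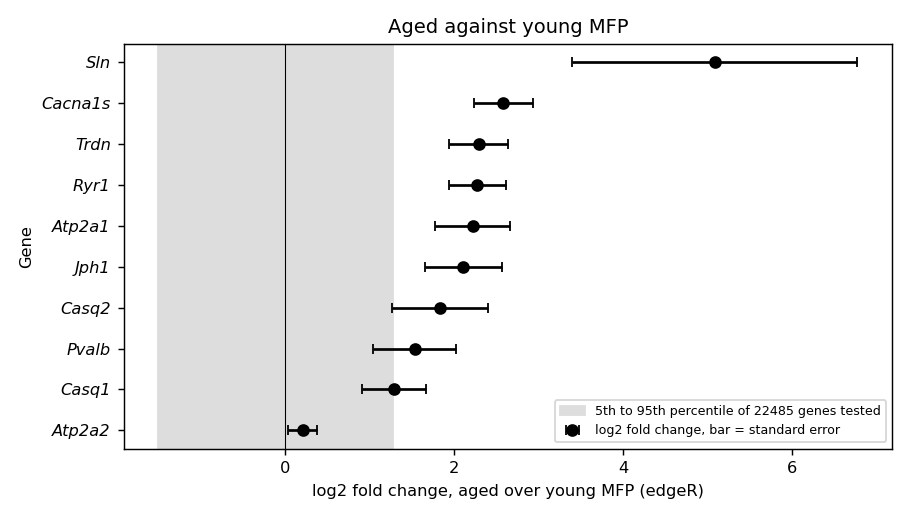
log2 fold change (aged over young MFP, edgeR fit, n = 2 per age) of the 10 genes with bars of 1 standard error, over a grey band from the 5th to the 95th percentile of all genes tested (-1.50 to 1.27). The points of 9 genes lie to the right of the band, Casq1 at its edge, and Atp2a2 lies inside it at 0.21; the fitted point of Sln, at 0 and 3 counts in young MFP, depends on the prior count.

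Per kb of transcript, Atp2a1 led in both ages, with a mean of 1834 ± 685 CPM per kb (SD, n = 2) in aged and 394 ± 70.9 in young MFP. Pvalb came next with 792 ± 415 and 274 ± 88.7 CPM per kb, and Casq1 the third with 157 ± 67.0 and 64.5 ± 14.5 CPM per kb. In young MFP the order went on with Atp2a2 (48.8 CPM per kb), Ryr1 (26.7), Cacna1s (11.01), Trdn (9.15), Jph1 (5.46), Casq2 (0.442) and Sln (0.0154). In aged MFP it went on with Ryr1 (129), Cacna1s (65.8), Atp2a2 (56.2), Trdn (44.8), Jph1 (23.6), Casq2 (1.58) and Sln (0.541). Atp2a2 thus stood ahead of Ryr1 and Cacna1s in both young libraries and behind Ryr1 in both aged ones. Neighbours whose libraries overlapped were Casq1 and Ryr1, Cacna1s and Atp2a2, and Casq2 and Sln in aged MFP, and Cacna1s and Trdn in young MFP.

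Ratios of a skeletal or fast gene to its relative were taken within each library, per kb, so that they do not depend on the scaling of libraries. Atp2a1 over Atp2a2 was 24.4 and 40.6 in aged and 7.86 and 8.28 in young MFP. The skeletal pump was thus the higher of the pair in all 4 libraries, by more in both aged ones (log2 difference 1.96, exact two-sided permutation p = 0.33, the smallest that 2 against 2 samples allow). Ryr1 over Ryr2, the cardiac release channel, was 825 and 1631 in aged and 81.7 and 244 in young MFP. Ryr1 over Ryr3, a release channel of many tissues, was 483 and 807 in aged and 197 and 153 in young MFP. Cacna1s over Cacna1c, the pore subunit of heart, smooth muscle and other cells, was 18.7 and 40.6 in aged and 4.23 and 3.28 in young MFP. In these 3 pairs as well both aged libraries lay above both young ones, by 3.04, 1.84 and 2.89 on the log2 scale (exact permutation p = 0.33 each). The difference of Ryr1 over Ryr2 was 2.25 without young replicate 1 and 3.83 without young replicate 2.

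Ryr2, Ryr3 and Cacna1c themselves overlapped between the ages. Ryr2 had 2.09 and 1.61 CPM in aged and 4.77 and 2.09 in young MFP (adjusted p = 0.547 by edgeR), Ryr3 had 3.29 and 2.99 against 1.82 and 3.06, and Cacna1c had 34.9 and 26.7 against 28.7 and 51.4. Of the 9 slow, cardiac or widely expressed relatives listed, 8 could be tested, 5 with a higher and 3 with a lower mean in aged MFP. Their log2 fold changes had a median of 0.14 and ran from -1.06 (Atp2a3) to 1.71 (Jph2). Atp2a3 overlapped between the ages, with 54.9 and 53.2 CPM in aged and 197 and 28.9 CPM in young MFP. Cacna1d had 8.25 and 11.005 CPM in aged and 8.61 and 8.37 CPM in young MFP, and Jph4 and Jph3 stayed under 1 CPM in all 4 libraries. Only Jph2 among these 8 passed a p of 0.05 before adjustment or the DESeq2 threshold.

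The junctophilin ratio was higher in both aged libraries by a smaller amount, and the calsequestrin ratio overlapped between the ages. Jph2, the junctophilin of heart that skeletal muscle also uses, had 171 and 317 CPM in aged and 59.2 and 89.6 CPM in young MFP (log2 fold change 1.71 ± 0.40, SE; adjusted p 0.404 by edgeR, 0.00554 by DESeq2). Jph1 over Jph2 was 0.361 and 0.431 in aged and 0.327 and 0.297 in young MFP, a log2 difference of 0.34 (exact permutation p = 0.33). Casq1 over Casq2 was 48.3 and 233 in aged and 109 and 193 in young MFP. The aged libraries thus stood on either side of the young ones (log2 difference -0.45, exact permutation p = 1), and the difference was 0.68 without aged replicate 1 and -1.59 without aged replicate 2. For Sln over Pln, phospholamban of heart and slow fibres, with 1 count added to each gene, the ratio was 0.451 and 5.36 in aged and 0.197 and 0.244 in young MFP, and it rests on at most 0.611 CPM of Pln. Its log2 difference was 2.83, and 1.04 without aged replicate 2.

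**Figure D3:**
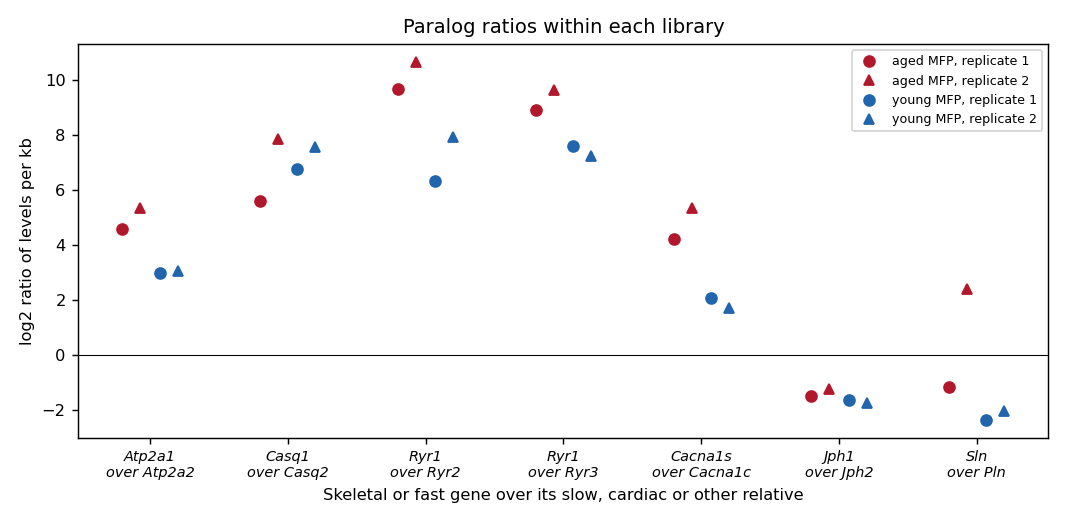
log2 ratio of the levels per kb of each skeletal or fast gene to its relative in each library (colours and symbols as for the CPM plot; 1 count added to Sln and Pln). The aged points lie above the young points for Atp2a1, for Ryr1 in both pairs and for Cacna1s, closely above them for Jph1, and on both sides of them for Casq1 over Casq2.

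Fast and slow contractile genes were set beside these ratios. Tnnc2 over Tnnc1, the fast and the slow and cardiac troponin C, was 67.1 and 802 in aged and 81.5 and 114 in young MFP, and Myh4 over Myh7, a fast and a slow myosin, 299 and 62989 against 3451 and 53360.1. Both ratios overlapped between the ages, with the lowest values in aged replicate 1, the library with the most Casq2 and the lowest Casq1 over Casq2. In that library Myh7 was at 24.3 CPM, against 0.270 in aged replicate 2 and 0.634 and 0.0678 in young MFP. Myoz2, which binds calcineurin in slow fibres, had 8.73 CPM there against 0.775 in aged replicate 2 and 0.183 and 0.0407 in young MFP, and Myh2, a myosin of fast oxidative fibres, 578 CPM against 2.16 and 1.15 and 1.06. Whether this library differs in the muscle sampled or in its fibres was not tested.

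Set against Ryr1 in the same library, a choice made after the values were seen, the members differed in how closely they followed the release channel. Atp2a1 over Ryr1 was 13.2 and 14.9 in aged and 14.9 and 14.7 in young MFP, per kb, and Trdn over Ryr1 was 0.336 and 0.354 against 0.314 and 0.364. In both pairs the ages overlapped, so that Atp2a1 and Trdn kept nearly the same proportion to the release channel in all 4 libraries. Jph1 over Ryr1 also overlapped, at 0.143 and 0.208 against 0.199 and 0.209, with aged replicate 1 lower than the other 3 libraries. Casq1 over Ryr1 was 1.07 and 1.31 in aged and 2.34 and 2.47 in young MFP, and Pvalb over Ryr1 was 4.86 and 6.97 against 9.13 and 11.1. Both ratios were lower in both aged libraries, by -1.02 and -0.79 on the log2 scale. Atp2a2 over Ryr1 was 0.539 and 0.367 in aged and 1.89 and 1.77 in young MFP, and Cacna1s over Ryr1 was slightly higher in aged MFP, at 0.482 and 0.527 against 0.398 and 0.422. Each of these 4 differences had the smallest exact permutation p of the design, 0.33.

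**Figure D4:**
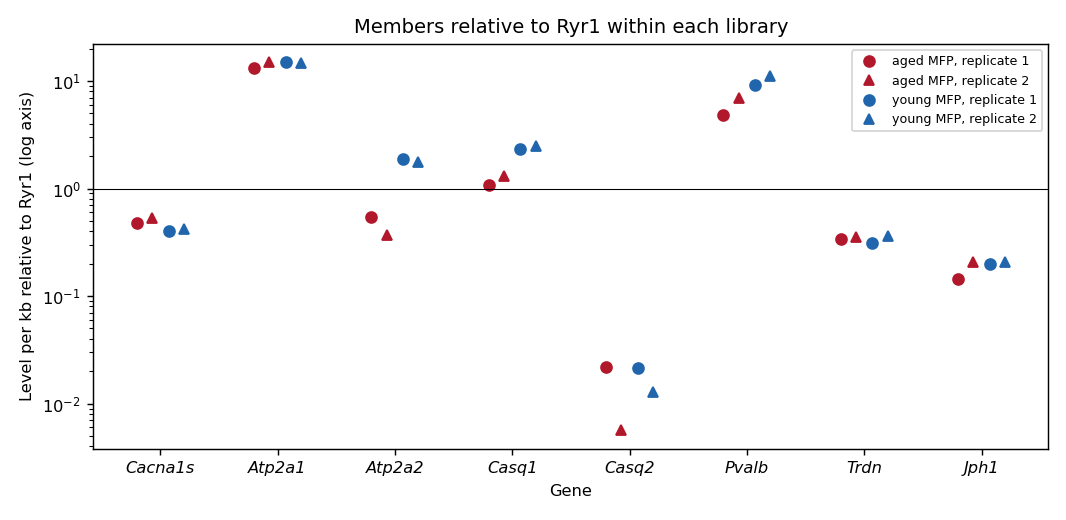
Level per kb of 8 members relative to Ryr1 in each library (log axis; colours and symbols as for the CPM plot; Sln left out because of its 0 counts). The points of Atp2a1 and Trdn lie close together in all 4 libraries, Jph1 is lower in aged replicate 1 than in the others, Atp2a2, Casq1 and Pvalb lie lower in both aged libraries, and Cacna1s lies slightly higher in both.

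Markers of skeletal muscle moved with the members. All 9 listed markers were higher in aged MFP, by a median of 2.06 on the log2 scale, and had a summed level of 32434 and 48241 CPM in aged against 8238 and 11156 CPM in young MFP. Xirp2 and Neb, genes of the muscle fibre's contractile lattice, had the largest of these changes, 2.47 and 2.20 on the log2 scale. In tissue RNA, more muscle cells in a sample and more of this RNA per muscle cell cannot be told apart. The 12 fast contractile genes were all higher in aged MFP, by a median of 2.05 on the log2 scale, Myh2 and Myh1 by the most. Acta1, Ckm, Mylpf, Tnnt3 and Tnni2 stand in this list and among the 9 markers, so the 2 medians are not separate results. The change of Myh2 came through aged replicate 1. Myh1 had 1130 and 193 CPM in aged and 149 and 1.99 CPM in young MFP, so its low level in young replicate 2 enters its change as well. Relative to the mean log2 CPM of these 12 genes in the same library, the members had a median difference between aged and young of -0.24. Without Myh1 and Myh2, an alternative added after seeing the data, this median was 0.27. It was -0.39 with the slow contractile genes as the reference, -0.30 with both lists, and -0.51 to 0.27 when 1 library at a time was left out, where 1 SD between replicates was 0.369. On that scale the difference of Ryr1 was -0.08 with and 0.43 without Myh1 and Myh2, that of Atp2a1 -0.16 and 0.35, and that of Trdn -0.05 and 0.46, so their sign depends on the reference. Atp2a2 (-2.12 and -1.61) and Casq1 (-1.10 and -0.59) lay lower in both aged libraries than in both young ones with either reference.

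Markers of the heart stayed low: their summed level was 8.18 and 7.86 CPM in aged and 8.15 and 8.33 CPM in young MFP. Nppa was at 0 counts in all 4 libraries, and Myh6 had 27 and 6 counts in aged and 1 and 0 in young MFP. Mybpc3 was at or under 0.488 CPM. Tnni3, the cardiac troponin I, gave 2.62 and 2.04 CPM in aged and 3.16 and 4.62 CPM in young MFP, and Tnnt2 gave 5.21 and 5.73 CPM against 4.49 and 3.604 CPM, so that these genes made up most of the sum. The 6 smooth muscle markers summed to 1067 and 1389 CPM in aged and 399 and 789 CPM in young MFP, of which Des, a gene of striated muscle too, was the only one at a p under 0.05 before adjustment (log2 fold change 2.31; adjusted p 0.360 by edgeR). Lmod1 was next in size, at 1.32. Adipocyte markers summed to 7598 and 5666 CPM against 4913 and 4901 CPM, with Lep (log2 fold change 1.20) and Adipoq (1.00) the largest. Brown adipocyte markers summed to 70.8 and 81.6 CPM against 57.8 and 65.5 CPM, with Ucp1 lower (-0.78) and Elovl3 higher (1.95) in aged MFP. Mammary epithelial markers summed to 1000.3 and 996 CPM against 584 and 1279 CPM, with Krt5 (1.36) and Krt14 (1.22) the largest differences. Of the 6 epithelial markers 4 had a higher and 2 a lower mean in aged MFP (Csn3, -0.42, and Krt8, -0.17), with a median of 0.14. Krt5 had 12.1 and 50.9 CPM in young replicates 1 and 2 and Krt14 8.47 and 34.1 CPM, so young replicate 1 sets much of both differences. The part of these cell types in the levels of Atp2a2, Ryr2, Ryr3 or Cacna1c was not tested.

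A further list held 23 other genes set beside the triad and its complex. It includes Jph2, counted above among the relatives as well, and Mypn, a gene of the contractile lattice. Of the 23 genes, 22 had a higher and 1 a lower mean in aged MFP, and the median of the log2 fold changes was 1.42. By edgeR 0 were called, and 16 were higher at a p under 0.05 before adjustment, beside 7.24% of all genes tested. DESeq2 called 14 higher, beside 3.17% of the genes it tested. Cacng1, a subunit of the skeletal calcium channel, had 13.7 and 35.6 CPM in aged and 3.07 and 5.35 CPM in young MFP, the largest difference of the list (log2 fold change 2.55 ± 0.61, SE). Mypn, which ties the contractile lattice together, followed with 2.35 ± 0.41. Hrc (2.26), a calcium-binding protein of the store lumen, Jsrp1 (2.23), which binds the voltage sensor, and Stac3 (1.64), which couples it to Ryr1, are named here because of their values. The log2 fold changes nearest to 0 in the list were those of Mtm1 (0.01), Dysf (-0.03) and Fkbp1a (0.17).

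The small SERCA regulators other than Sln were scarce. Mrln, which encodes myoregulin, had 1.10 and 2.66 CPM in aged and 0.244 and 0.528 CPM in young MFP (log2 fold change 2.28; adjusted p 0.436 by edgeR, 0.0553 by DESeq2), Pln had 0.611 and 0.415 against 0.0976 and 0.379 CPM, and Strit1 was at 0 counts in all 4 libraries. Of 15 genes of calcium signalling enriched in muscle, which include Casq1 and Casq2, 15 had a higher mean in aged MFP, and the median of the log2 fold changes was 1.64. By edgeR 0 were called, and 11 were higher at a p under 0.05 before adjustment, beside 7.24% of all genes tested. DESeq2 called 9 higher, beside 3.17% of the genes it tested. Myoz2 had the largest change (5.38 ± 1.58, SE), through aged replicate 1, and Slc8a3, a sodium and calcium exchanger, came next with 9.60 and 14.5 CPM in aged against 1.76 and 2.37 CPM in young MFP (2.54 ± 0.35, SE). In 3 of the 7 slow contractile genes tested both aged libraries lay above both young ones, beside 23.3% of all genes tested. The 7 genes differed by a median of 2.15 on the log2 scale. Aged replicate 1 sets this median: the mean log2 CPM over the 8 genes of the list was 3.26 there, against -0.36 in aged replicate 2 and -0.49 and -1.58 in young MFP.

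Calcium handling genes that most cell types use did not follow the members in the size of their change. Of 25 such genes, which include the IP3 receptors, the store-operated channels and the plasma membrane pumps, 16 had a higher and 9 a lower mean, and the median of the log2 fold changes was 0.14. By edgeR 0 were called and DESeq2 called 0. At an edgeR p under 0.05 before adjustment 3 were higher and 1 lower, beside 7.24% and 3.31% of all genes tested. In 10 of the 25 both aged samples lay above both young ones, a larger share than the 23.3% of all genes tested, and in 1 both lay below. Slc8a1, an exchanger of heart and many tissues, had 18.4 and 26.3 CPM in aged and 12.9 and 14.2 CPM in young MFP (log2 fold change 0.72 ± 0.25, SE; adjusted p 0.463 by edgeR). Itpr1, the most abundant IP3 receptor per kb among the 3, had 203 and 180 CPM against 210.3 and 190 CPM.

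**Figure D5:**
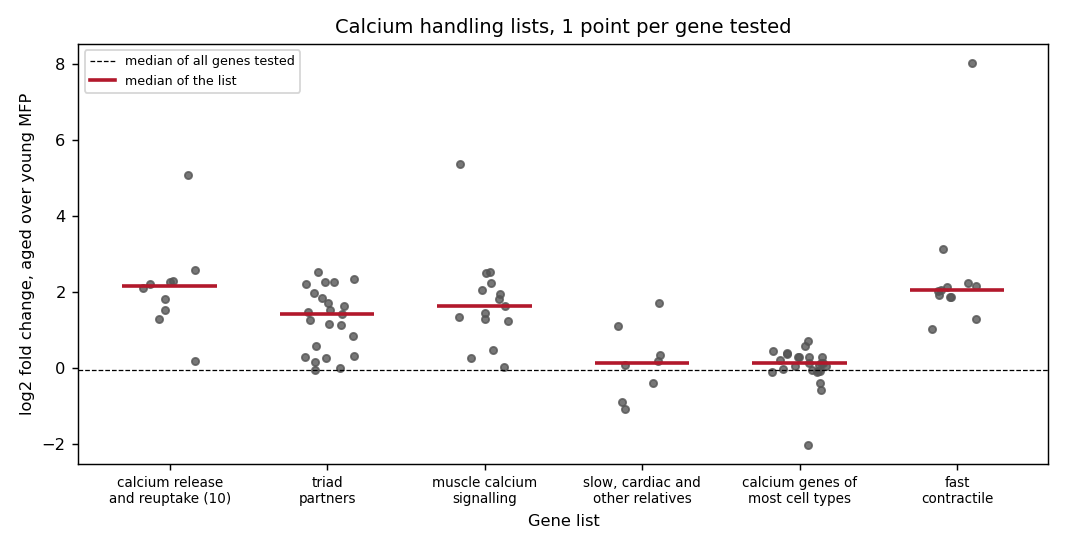
log2 fold change (aged over young MFP, edgeR) of each gene tested in 6 lists, 1 point per gene, with the list median in red and the median of all genes tested (-0.04) dashed. The medians lie at 2.16 for the 10 members, 1.42 for triad partners, 1.64 for muscle calcium signalling and 2.05 for fast contractile genes, but at 0.14 for the relatives and for the calcium genes of most cell types.

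Genes most like 3 members over the 4 libraries were sought among 16551 other genes tested with a mean of at least 1 CPM, by the distance between log2 CPM values centred on their mean. Nearest to Atp2a1 were Cacng6 (distance 0.07), Neb (0.09), Jsrp1 (0.10), Plaat1 (0.10) and Rpl3l (0.11). Nearest to Casq2, which was highest in aged replicate 1, were Bmp3 (0.18), Plppr3 (0.28), Ranbp3l (0.37), Fhl1 (0.39) and Pcp4 (0.40). For Sln the closest genes searched were Prss35 (1.23), Casr (1.36), P2ry4 (1.40), Ankrd1 (1.44) and Ecrg4 (1.46). They stood farther from it than any of those named stood from the other members. Sln itself, at a mean of 0.713 CPM in aged and 0.0203 CPM in young MFP, lay under the limit of 1 CPM. Genes at its own level were thus not searched, and these distances cannot show whether it had a near neighbour. Exons of Atp2a1 overlap those of Rabep2 on the opposite strand over 763 bases. Those of Cacna1s and Ryr1 overlap the antisense genes Gm37759 over 1309 and Gm26604 over 864 bases. Casq1, Atp2a2 and Jph1 have shorter overlaps. Of the genes used in ratios, Tnnc2 shares 74% of its exon bases with Ube2c and Pln 59.6% with Gm47644, both on the opposite strand. The strand setting of the counting is not given in the sources used here, so the part of these overlaps in the counts was not tested.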

How the data were processed

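RNA of 4 MFP samples (2 aged, 2 young) was extracted from whole tissue, depleted of ribosomal RNA and made into strand-specific libraries. The file deposited by the authors holds read counts for each gene and sample, neither normalized nor pooled; the submitters' processing notes name featureCounts, R 3.6.1 and the builds GRCm38 and hg38, while aligner, annotation and strand setting are not given in the sources used here. Samples were grouped by the age and replicate number in their labels. No row lacked a gene, and a symbol on more than 1 row (114 symbols) is no member.

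All later steps used edgeR 4.0.16, DESeq2 1.42.0 and limma 3.58.1 in R 4.3.3. Genes kept by filterByExpr (22485) were scaled by TMM and tested two-sided with edgeR's quasi-likelihood test (glmQLFit, glmQLFTest), with age as the only term and Benjamini-Hochberg adjustment at 0.05. The SE is the log2 fold change divided by the square root of F. Log2 CPM used a prior count of 2. Reads from PCR, with no molecular identifiers, are not independent molecules, and the limit of 3 counts and the count interval cover counting error only. Coordinates and lengths are from GENCODE M21 on GRCm38; promoters are from RefSeq on GRCm38.p6. The code was tested on simulated data.

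The members and lists were chosen with earlier results of these data known. Named were all members, the relatives they were paired with, the 2 genes with the largest absolute change of every other list and the 5 genes most like Atp2a1, Casq2 and Sln; a few further genes were chosen for their values. Alternatives were other scalings (RLE, upper quartile, total counts), omitting the filter or asking for 10 counts in all samples, DESeq2, the replicate number as a block, another reference or gene length for ratios, an added count, and leaving out each sample. Across genes, the deviations of samples with the same number from their age's mean had a correlation of -0.48, so the numbers were not taken to pair the samples. With 2 samples per age the crossed numbers have a correlation of the same size and the opposite sign. Whether samples were linked across the ages in that way is not given in the labels.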

Additional observations from a re-analysis of the deposited data

How the results depend on the processing

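Under the other scalings, both filters and DESeq2, every member tested had a log2 fold change above 0, and their median lay between 1.96 and 2.17. Total-count scaling gave the lowest value and moved the median of all genes by -0.18. DESeq2 called 865 genes and 5 members, where edgeR called 0 genes and 0 members under every alternative. Leaving out 1 sample at a time gave a median for the members of 1.84 to 2.54, highest without aged replicate 1, and 837 to 6688 genes at a p under 0.05 before adjustment, against 2371 with all samples. Relative to the fast contractile genes the median difference of the members ran from -0.51 to 0.27 when samples were left out, and it was 0.27 without Myh1 and Myh2, so its sign depends on the reference and on 1 library. With 10 or more counts required in every sample Sln could not be tested. With the replicate number as a block, which does not pair the samples, edgeR called 0 genes and 0 members with a median of 2.10. In that fit 1346 genes had a p under 0.05 before adjustment. With the numbers crossed, a fit added after seeing the data, edgeR again called 0 genes and 0 members, and 2494 genes had a p under 0.05 before adjustment. With 2 samples per age, 1 library sets much of each value: aged replicate 2 those of Sln, Pvalb, Casq1 and Jph1, and aged replicate 1 that of Casq2. Depth limits Sln, at 3 counts or fewer in young MFP, and Pln and Myh6 among the other genes.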

Other observations

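In young replicate 1 a few genes outside muscle stood apart from the other 3 libraries. Atp2a3, the SERCA pump of blood and endothelial cells, had 197 CPM there against 28.9 CPM in young replicate 2 and 54.9 and 53.2 CPM in aged MFP. Orai2, a store-operated calcium channel, had 63.2 CPM there against 6.79 CPM in young replicate 2 and 7.13 and 10.3 CPM in aged MFP. Lyz2, a listed macrophage marker, had 374 CPM there, against 45.9 CPM in young replicate 2 and 73.9 and 119 CPM in aged MFP. The 5 macrophage markers summed to 489 CPM there against 132 in young replicate 2 and 201 and 271 in aged MFP. Most of that sum in young replicate 1 was Lyz2, and the other markers of the list did not stand apart there. Csf1r had 58.0 CPM in young replicate 1, 48.7 in young replicate 2 and 66.3 and 71.7 in aged MFP. In the same order C1qa had 32.7, 16.8, 29.8 and 43.4 CPM, and Cd68 had 13.9, 6.34, 13.6 and 15.5 CPM. Adgre1, the second of that list in size of change, had 10.003 and 14.5 CPM in young and 17.0 and 21.8 CPM in aged MFP. By edgeR none of these genes reached an adjusted p under 0.05 (0.641 for Atp2a3, 0.542 for Orai2, 0.658 for Lyz2). A link between these values and the calcium genes was not tested.

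Across the 10 members, transcript length and log2 fold change had a Spearman rho of 0.18, a description over genes that share the same 4 libraries. Across the 12 fast contractile genes rho was 0.71 and across the 23 triad partners -0.07. The Pearson correlation with log2 length was -0.21, 0.56 and -0.01 in the same order, so for the members the sign depends on the measure.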
